A study of Caenorhabditis elegans with 36 samples.

Results

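The FMRFamide-like peptide genes of the nematode Caenorhabditis elegans, named flp and a number, encode precursors of short neuropeptides that end in an amidated RFamide-type motif. All genes whose symbol is flp followed by a number were taken, which gave 31 genes among the 46926 genes listed in each deposited poly(A) RNA-seq table. RNA of whole animals was measured at 3 stages in 24 poly(A) libraries, which form 8 groups of 3 libraries labelled as biological replicates. Embryos and L1 larvae, the first larval stage, carried the genotype N2, the wild-type laboratory strain, or the genotype labelled xnp1, written xnp-1 here. L4 larvae, the last larval stage, carried N2, xnp-1, gsox-1 or xnp-1;gsox-1, and the last of these is called the double genotype here. The labels give no allele for any genotype, and the study's design text names a knockdown for the younger stages and mutant backgrounds for L4. Embryos were released with hypochlorite from adults kept at 20 °C, L1 larvae were such embryos left in M9 buffer for about 11 h, and L4 larvae were raised at 25 °C. The xnp-1 gene is the worm counterpart of ATRX, a chromatin remodeller.

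FLP precursors are made mainly in neurons. They are cut by proprotein convertases such as EGL-3, trimmed by the carboxypeptidase EGL-21, amidated, packed into dense-core vesicles and released to act on G protein-coupled receptors of the NPR, FRPR and DMSR groups. Single flp genes are expressed in small and partly distinct sets of neurons and are known for roles in locomotion, feeding, egg laying, sleep and sensory behaviour. A flp level in whole-animal RNA is therefore a sum over those neurons, and fewer cells of a type cannot be told apart here from less RNA per cell.

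Embryo and L1 libraries held 29896459 to 41520291 counted fragments each, and L4 libraries 39004451 to 45391494 counted reads. Both tables were fitted apart, since their sequencing centre, counting settings and temperature differed. RNA of xnp-1 itself was lower in the libraries labelled xnp-1 in embryos (131 against 401 CPM in N2, counts scaled to library size as explained below; edgeR adjusted p = 5.98e-05) and at L4 (46 against 75.5 CPM, edgeR adjusted p = 0.0131). In L1 larvae it stood at 170 against 249 CPM, a difference that did not pass the threshold (edgeR adjusted p = 0.135). RNA of gsox-1 was not lower in the libraries labelled gsox-1 (78.5 ± 3.5 CPM, SD, n = 3) than in N2 (56.9 ± 12.7), so RNA does not check that label and the groups are called by their labels throughout. At L4 gsox-1 RNA was 162.5 ± 14.9 CPM in xnp-1 and 70.4 ± 24.7 CPM in the double genotype. RNA of xnp-1 in the double genotype was 29.3 ± 7.6 CPM. Pan-neuronal genes were detected in every group: of a list of 20, all passed the filter on low counts in both tables. L4 libraries N2 replicate 1 and double-genotype replicate 1 stood apart, with 4.13% and 5.52% of their counts on mitochondrial genes against 1.42% to 2.43% in the other L4 libraries.

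Of the 31 flp genes, 30 passed the filter on low counts in both tables, and flp-23 passed in neither. Levels are given as CPM (counts scaled to a common, TMM-adjusted library size) within a gene and as RPKM (CPM per kilobase of exon) between genes. In N2 embryos the 3 highest members per length were flp-1, a regulator of locomotion, at 25.4 ± 3.9 RPKM, flp-11, a peptide gene of the sleep-promoting RIS neuron, at 22.7 ± 2.6, and flp-9 at 17.7 ± 4.4 (SD, n = 3). The same 3 genes led in N2 L1 larvae, with flp-1 at 185.5 ± 71.0 RPKM, flp-9 at 152.1 ± 56.7 and flp-11 at 130.9 ± 44.9, values whose spreads overlap. In N2 L4 larvae the order was flp-14 at 82.5 ± 30.2 RPKM, flp-24 at 80.4 ± 8.7, flp-9 at 77.6 ± 6.3 and flp-1 at 72.6 ± 33.1, and these 4 did not differ beyond their spread. The 5 highest members held 36.7% of the family's summed RPKM in N2 embryos, 40.3% in N2 L1 larvae and 40.1% in N2 L4 larvae.

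**Figure D1:**
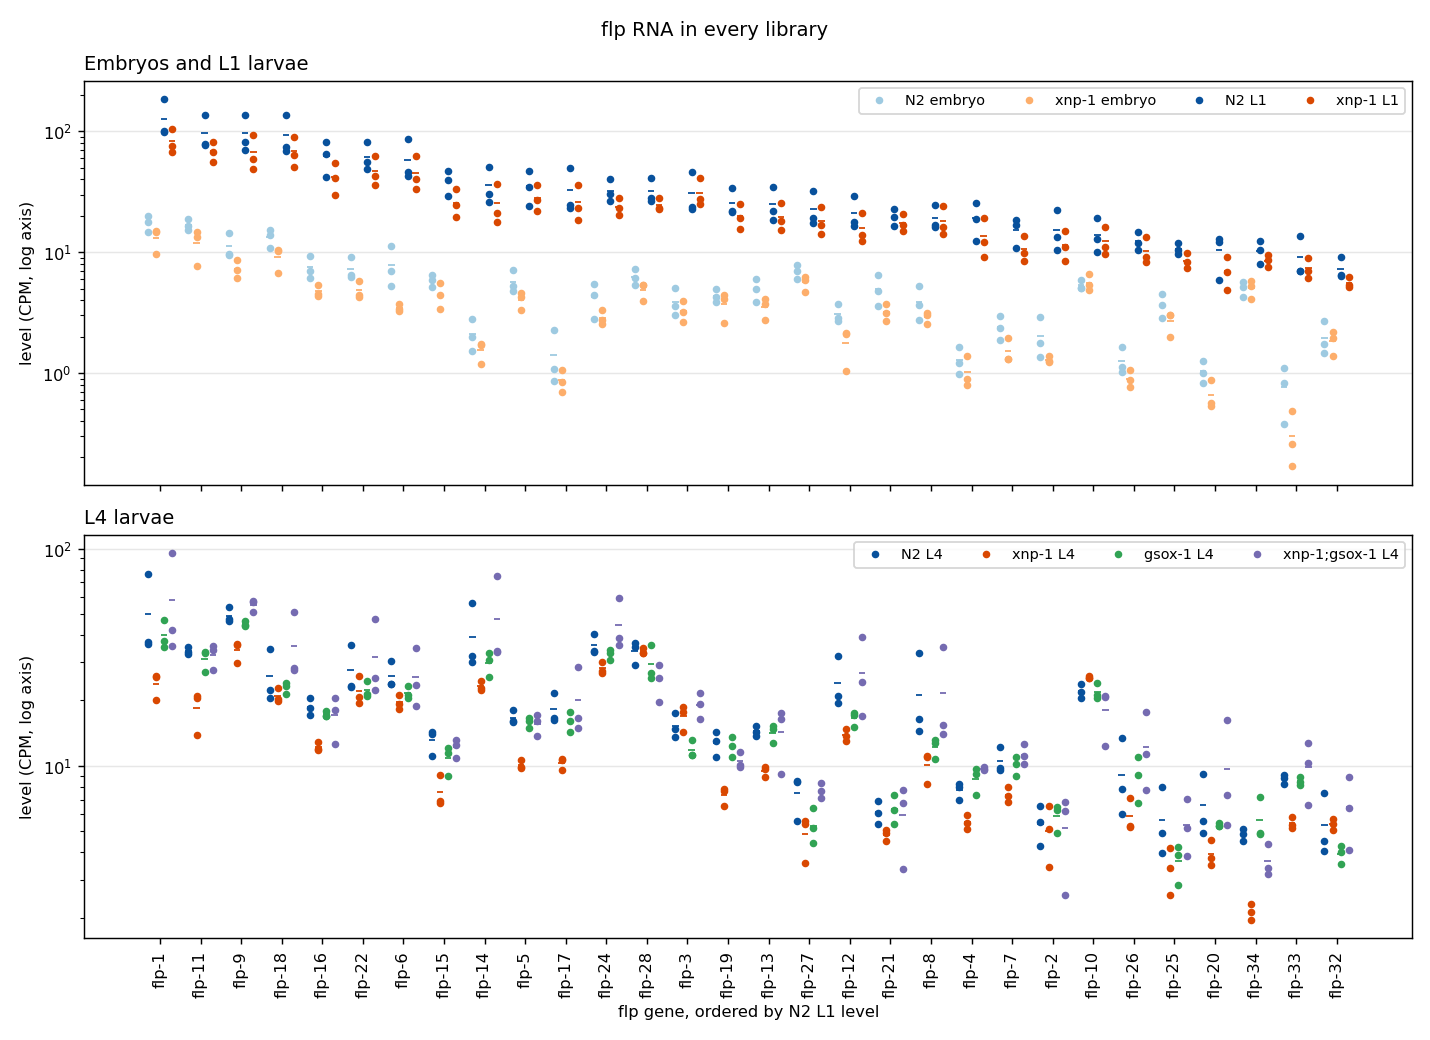
Level of each of the 30 tested flp genes (CPM, log axis) in embryos and L1 larvae above and in L4 larvae below, with 1 point for each library, short lines for the group means, colours for the groups and genes ordered by their N2 L1 level. For each gene the L1 points of a genotype lie above its embryo points, and at L4 the highest points of flp-1 and flp-14 are library 1 of N2 and of the double genotype.

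The 31 genes lie on all 6 chromosomes, and 13 of them (41.9%) are on X, which holds 14.6% of all genes tested in embryos and L1 larvae. Nearest neighbours are mostly far apart, with the exception of flp-28, flp-3 and flp-2, which follow each other on the minus strand within 7932 bases of X (WBcel235, X:10087314-10095245, with gaps of 3979 and 1465 bases). Exons of flp genes share few bases with other genes. The largest overlap was 21 bases or 2.94% of the exon length, at flp-8 with a gene on the opposite strand, and the only overlap on the same strand was 7 bases of flp-17.

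All 30 tested flp genes rose from embryo to L1 in N2, by a median of 2.79 on the log2 scale and by 1.04 (flp-34) to 4.52 (flp-17), with N2 L1 libraries above N2 embryo libraries for every gene. The test was edgeR's quasi-likelihood F test with Benjamini-Hochberg adjustment over all genes, and a gene was called below an adjusted p of 0.05. Over all 17687 genes tested, 34.3% were called higher in L1 larvae, and the median change was 0.10. Of the 17687 genes, 4460 were called lower. Over the same step 14 of 18 early zygotic genes and 10 of 15 germline genes were called lower and 8 of 12 body wall muscle genes were called higher. Their part in the flp values was not tested. The summed level of the pan-neuronal genes was 2783 to 2909 CPM in N2 embryos and 2636 to 3230 CPM in N2 L1 larvae. As a sum over the family, N2 embryo libraries held 198, 138 and 155 CPM and N2 L1 libraries 1500, 936 and 836 CPM.

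flp-17, a gene of the CO2-sensing BAG neurons whose peptides inhibit egg laying through the receptor EGL-6, had the widest change. Its levels were 2.26, 0.853 and 1.08 CPM in N2 embryos and 49.6, 23.1 and 24.8 CPM in N2 L1 larvae, with the lowest L1 library above every embryo library, a change of 4.52 ± 0.44 (SE; edgeR adjusted p = 1.14e-05). flp-14 went from 2.80, 1.99 and 1.53 CPM to 50.8, 30.1 and 26.2 CPM, a change of 4.07 ± 0.37 (edgeR adjusted p = 7.3e-06). Groups did not overlap for either gene, and in both the L1 library numbered 1 was the highest.

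The smallest adjusted p belonged to flp-26, with 1.65, 1.01 and 1.11 CPM in N2 embryos and 14.6, 11.9 and 10.4 CPM in N2 L1 larvae (log2 change 3.27 ± 0.29, edgeR adjusted p = 5.85e-06). flp-22 had 9.07, 6.19 and 6.49 CPM in N2 embryos and 81.6, 55.6 and 48.4 CPM in N2 L1 larvae. flp-24, which acts in the sleep-promoting ALA neuron, had 5.42, 2.81 and 4.45 CPM in N2 embryos and 39.97, 30.5 and 26.6 CPM in N2 L1 larvae. Every L1 library exceeded every embryo library in these 3 genes.

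flp-16 had 9.24, 6.16 and 7.02 CPM in N2 embryos and 81.6, 64.8 and 42 CPM in N2 L1 larvae. flp-28 had 7.22, 5.37 and 6.15 CPM in N2 embryos and 41.3, 28.3 and 26.4 CPM in N2 L1 larvae. The 3 genes highest per length at both stages rose by 2.87 ± 0.29 for flp-1, 3.10 ± 0.32 for flp-9 and 2.53 ± 0.28 for flp-11. At the other end, flp-34, a neuropeptide Y/F-like gene known from olfactory learning, went from 5.71, 4.23 and 5.11 CPM to 12.4, 10.4 and 8.04 CPM, a change of 1.04 ± 0.23 (edgeR adjusted p = 0.00305). flp-10 (1.39 ± 0.27), flp-25 (1.55 ± 0.25) and flp-27 (1.71 ± 0.27) were also among the smaller changes.

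In xnp-1 animals the same step gave 30 of 30 tested members called higher, with a median of 2.86 on the log2 scale and a range of 0.75 (flp-34) to 4.88 (flp-17). Over all genes 35.5% were called higher in that comparison. With library totals in place of TMM scaling the median of all genes in the xnp-1 comparison moved from 0.11 to 0.295 and the calls over all genes from 6271 higher and 4880 lower to 7047 and 3200, while 30 flp genes were called higher under both scalings. The smallest change was that of flp-34 (0.75 ± 0.23, edgeR adjusted p = 0.0134). It was no longer called without xnp-1 L1 replicate 1 (0.67, edgeR adjusted p = 0.0506).

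The difference of the xnp-1 effect between L1 larvae and embryos, tested as an interaction, was called for 0 of 30 flp genes by edgeR, with 0 members at an unadjusted p under 0.05. DESeq2 also called 0. Over all genes the share called by edgeR was 0%, and 2.57% had an unadjusted edgeR p under 0.05. Its largest values in the family were those of flp-33 (1.02 ± 0.61) and flp-6 (0.83 ± 0.47).

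**Figure D2:**
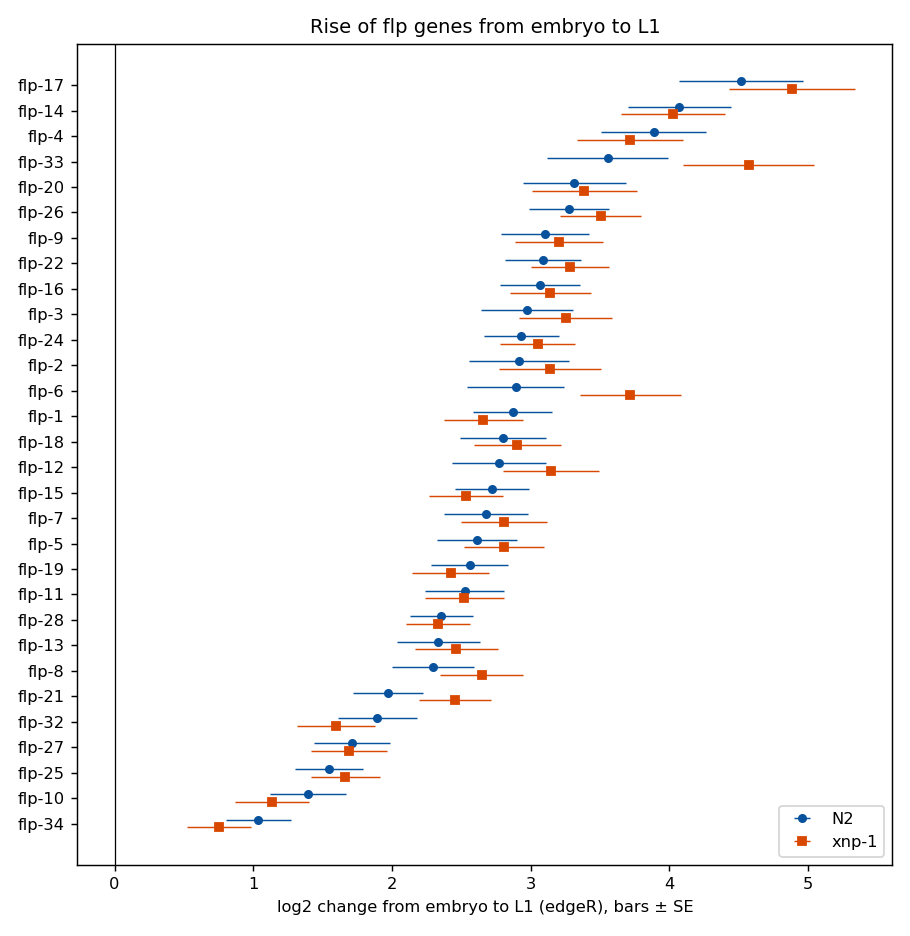
Change of each of the 30 tested flp genes from embryo to L1 (log2, edgeR estimate, horizontal bars ± SE), for N2 in blue circles and xnp-1 in orange squares. All 60 points lie right of 0, from 0.75 for flp-34 in xnp-1 to 4.88 for flp-17 in xnp-1.

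In embryos, 28 of 30 flp genes had lower estimates in xnp-1 than in N2, with a median of -0.50 on the log2 scale against 0.03 over all genes, and none was called. Of all genes tested, 45.6% had estimates below 0. edgeR called 0.684% of all genes lower in this comparison, and DESeq2 called 1 flp gene. An unadjusted edgeR p under 0.05 was found for 7 of 30 flp genes and for 11.8% of all genes. The share of all genes whose groups do not overlap was not computed. The libraries of both groups did not overlap for 8 members, all lower in xnp-1: flp-5, flp-6, flp-9, flp-11, flp-12, flp-16, flp-18 and flp-22.

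flp-6, expressed in the ASE taste neurons, was the gene nearest to the threshold. Its levels were 11.2, 5.27 and 6.98 CPM in N2 embryos and 3.27, 3.36 and 3.70 CPM in xnp-1 embryos. All 3 xnp-1 libraries were below all 3 N2 libraries, by -1.19 ± 0.34 (edgeR adjusted p = 0.134). It was called by DESeq2, in the fit of embryos alone and in the fit without N2 L1 replicate 1. flp-33 had the lowest estimate, -1.34 ± 0.48, from 0.827, 1.11 and 0.382 CPM in N2 and 0.169, 0.484 and 0.257 CPM in xnp-1, and its groups overlapped.

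The members with estimates above 0 in embryos were flp-10 (0.08 ± 0.27) and flp-34 (0.01 ± 0.23). flp-10 had 5.03, 5.84 and 5.04 CPM in N2 embryos and 4.88, 6.57 and 5.33 CPM in xnp-1 embryos, and flp-34 had 5.71, 4.23 and 5.11 CPM against 4.12, 5.29 and 5.74 CPM. Both sets overlap. In N2 embryo replicate 1 the level was the highest of the group for 28 of 30 members, and in xnp-1 embryo replicate 1 it was the lowest of the group for 25 of 30. Body wall muscle genes, 12 in the list and 0 called, had a median of -0.45 in the same comparison, with summed levels of 5663 to 8573 CPM in xnp-1 and 9850 to 11295 CPM in N2, and pan-neuronal genes a median of -0.08; their part in the flp values was not tested. Family sums in the libraries numbered 1 were 198 and 94.3 CPM, against 138 and 155 CPM in the other N2 embryo libraries and 126 and 133 CPM in the other xnp-1 embryo libraries. Without both of these libraries the median was -0.16 and 0 members were called by edgeR.

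In L1 larvae, 29 of 30 flp genes had lower estimates in xnp-1, with a median of -0.38 against 0.01 over all genes, and none was called by edgeR in the fit of all 4 groups, where 0.119% of all genes were called lower. Of all genes tested, 49.3% had estimates below 0. Of the 30, 3 had an unadjusted edgeR p under 0.05 (flp-1, flp-15 and flp-16), beside 6.69% of all genes, and DESeq2 called 0. The gene above 0 was flp-3 (0.02 ± 0.30). Estimates below 0 were also found for 55 of 67 tested nlp genes (neuropeptide-like proteins, median -0.30) and 11 of 12 body wall muscle genes (-0.31). Among 23 tested ins genes (insulin-like peptides) 12 were below 0 (-0.07), and among 15 germline genes 2 (0.39). Their part in the flp values was not tested. Library sums in xnp-1 L1 larvae were 1050, 749 and 629 CPM, so that each lies below the N2 L1 library of the same number (1500, 936 and 836 CPM) while the groups overlap.

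Libraries of the same number deviated together in N2 and xnp-1 L1 larvae, with correlations over genes of 0.785, 0.505 and 0.712, and the replicate number was therefore also used as a block. With the block, fitted on the L1 libraries only, 16 of 30 flp genes were called lower, beside 8.03% of all genes. The largest of these paired changes were those of flp-15 (-0.60 ± 0.09, edgeR adjusted p = 0.0029), flp-1 (-0.59 ± 0.10) and flp-16 (-0.59 ± 0.08). When all 4 groups entered one blocked fit, 0 were called. Within pairs xnp-1 was lower for 30, 27 and 29 of the 30 members in the pairs numbered 1, 2 and 3, and for 27 members in all 3 pairs. The share of all genes lower within pairs was not computed. All members were measured in the same 3 pairs of libraries, so they are not independent.

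flp-1 illustrates the pairing. It stood at 184, 98.4 and 100 CPM in N2 L1 larvae and at 105, 75 and 68.1 CPM in xnp-1 L1 larvae. flp-15, whose peptides activate the receptor NPR-3, had 47.1, 39.5 and 29.1 CPM in N2 and 33.1, 24.5 and 19.6 CPM in xnp-1. In both genes each xnp-1 library was below its numbered N2 partner, and xnp-1 replicate 1 was above the lowest N2 library. In both L1 groups replicate 1 was the highest library for 30 of 30 members.

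At L4 the xnp-1 effect was tested at 25 °C. Of 30 flp genes, 15 were called lower in xnp-1 than in N2 and 0 higher, beside 25.3% of all genes called lower and 23.3% called higher. The median over the family was -0.62 against -0.16 over all genes, and 27 members had estimates below 0, as had 55.1% of all genes. Groups did not overlap for 21 members, of which 20 were lower in xnp-1, and the share of all genes without overlap was not computed. An unadjusted edgeR p under 0.05 was found for 18 of 30 members and for 55.1% of all genes. The family sum was 685, 513 and 529 CPM in N2 and 417, 413 and 374 CPM in xnp-1.

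flp-34 fell most, from 4.53, 4.88 and 5.10 CPM in N2 to 1.95, 2.31 and 2.12 CPM in xnp-1, a change of -1.18 ± 0.24 (edgeR adjusted p = 0.00172). flp-11 fell by 0.87 ± 0.19 on the log2 scale, from 35.1, 33.3 and 32.6 CPM to 20.5, 21.1 and 13.9 CPM (edgeR adjusted p = 0.0029). All xnp-1 libraries were below all N2 libraries for both genes, and both calls held under each of the 20 alternatives run.

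flp-5 fell by 0.72 ± 0.16, from 18, 15.9 and 16 CPM in N2 to 9.74, 10.7 and 9.90 CPM in xnp-1 (edgeR adjusted p = 0.00362). flp-19 fell by 0.80 ± 0.19, from 13.1, 10.9 and 14.3 CPM to 6.52, 7.68 and 7.81 CPM (edgeR adjusted p = 0.00433). flp-15 fell by 0.79 ± 0.21, from 14.3, 11.1 and 14 CPM to 9.12, 6.89 and 6.73 CPM (edgeR adjusted p = 0.00793). In each of these genes the highest xnp-1 library was below the lowest N2 library.

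flp-9, among the highest members per length at every stage, fell by 0.53 ± 0.14, from 53.7, 47.3 and 46.4 CPM to 36.5, 36 and 29.7 CPM (edgeR adjusted p = 0.00898). flp-1 and flp-8, a gene used to mark the oxygen-sensing URX neurons, also fell, by 1.06 ± 0.38 and 1.08 ± 0.38 (edgeR adjusted p = 0.0345 and 0.0351). The size of both changes depended on 1 library. flp-1 had 76.1, 36.2 and 37.3 CPM in N2 against 25.9, 25.7 and 20.2 CPM in xnp-1, and flp-8 had 33, 14.5 and 16.4 CPM against 11.1, 10.9 and 8.26 CPM. N2 replicate 1 was more than 1.5 times the other N2 libraries in both, yet every N2 library was above every xnp-1 library. Without N2 replicate 1 the changes were -0.62 and -0.61 (edgeR adjusted p = 0.168 and 0.179). Without N2 replicate 1 and double-genotype replicate 1, the pair of high mitochondrial share, they were -0.62 and -0.61 as well and were called. Each of these 2 calls held in 15 of the 20 alternatives run.

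The other called members were flp-17 (-0.82), flp-12 (-0.80), flp-33 (-0.68), flp-16 (-0.61), flp-13 (-0.60), flp-7 (-0.51) and flp-4 (-0.49). flp-13 acts with flp-24 in the ALA neuron in sleep after stress, and flp-7 acts in fat metabolism. Several of these calls rested on the settings used: of the 20 alternatives run, flp-4 was called in 3, flp-7 in 4, flp-13 in 5, flp-33 in 12, flp-12 in 14, flp-16 in 16 and flp-17 in 18. The highest edgeR or DESeq2 adjusted p over those alternatives was 0.167 for flp-4, 0.144 for flp-7 and 0.133 for flp-13. flp-4 and flp-7 were not called in a blocked fit of xnp-1 and N2 alone (edgeR adjusted p = 0.133 and 0.101), and there flp-14 was called (-0.66 ± 0.20, edgeR adjusted p = 0.025).

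Leaving out single libraries moved the count of 15, to 9 when N2 replicate 1 was dropped and to 8, 7 and 5 when xnp-1 replicate 1, 2 or 3 was dropped. Calls over all genes in either direction went from 8492 to 7821, 6989, 7377 and 6847 in these fits, in the same order. With any single library left out, the flp count ranged from 5 to 20. With library totals as the scaling 9 members were called, beside 8366 genes over all.

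A group of members did not follow the family. flp-10, whose peptides, like those of flp-17, act on EGL-6, had 23.9, 20.6 and 21.9 CPM in N2 and 25.4, 26 and 25.3 CPM in xnp-1. All xnp-1 libraries were above all N2 libraries, but the estimate did not pass the threshold (0.21 ± 0.20, edgeR adjusted p = 0.416). The adjacent genes on X had estimates near 0. flp-28 had 35.1, 36.7 and 29.2 CPM in N2 and 33.2, 34.9 and 33 CPM in xnp-1 (0.00 ± 0.19), flp-3, known from male mating behaviour, had 13.6, 14.8 and 17.6 CPM against 17.6, 18.6 and 14.4 CPM (0.14 ± 0.19), and flp-2, known from arousal, had 4.28, 6.51 and 5.49 CPM against 5.14, 6.55 and 3.43 CPM (-0.11 ± 0.36). Both groups overlapped for all 3 neighbours. flp-32 had 7.497, 4.05 and 4.51 CPM against 5.71, 5.42 and 5.08 CPM (0.01 ± 0.31), again with overlap. Over all members the median was -0.62 for the members on X, with 6 called, and -0.61 for those on autosomes, with 9 called.

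**Figure D3:**
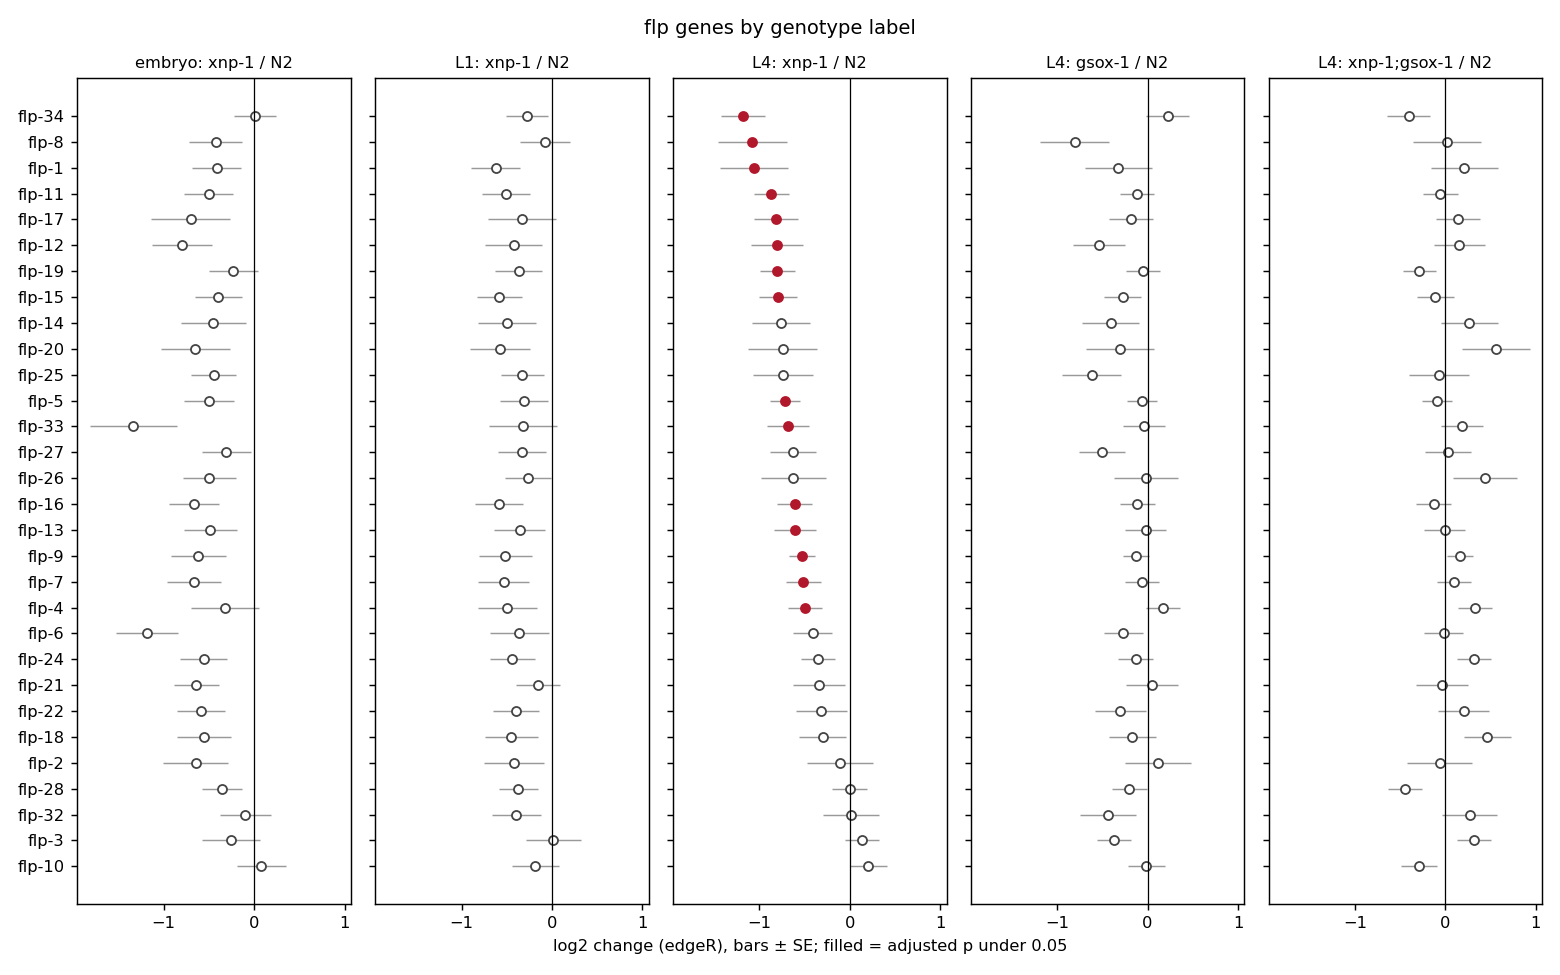
Change of each tested flp gene against N2 (log2, edgeR estimate, bars ± SE) for xnp-1 in embryos, L1 larvae and L4 larvae and for gsox-1 and the double genotype at L4, ordered by the xnp-1 estimate at L4, with filled points for an adjusted p under 0.05. The 15 filled points are all in the panel of xnp-1 at L4, where estimates run from -1.18 for flp-34 to 0.21 for flp-10.

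flp-23 was listed near 0 and could not be tested in the filtered fit. It had 2, 20 and 22 counts in the N2 L4 libraries and 0 counts in each of the other 9 L4 libraries. With a floor of 3 counts over the 3 libraries of each group at 0, the summed N2 level was 14.9-fold that of xnp-1. It was 14.7-fold that of gsox-1 and 15.9-fold that of the double genotype. Both mates of a read pair may be counted at L4, so 3 counts may be fewer than 3 fragments and these folds are not lower bounds. The folds also take no account of the spread between libraries. N2 replicate 1 was far below the other N2 libraries, so the spread within N2 is large. Without a filter on low counts, edgeR gave an adjusted p of 0.0192 for xnp-1, 0.837 for gsox-1 and 0.195 for the double genotype, each against N2. In embryos and L1 larvae a group held 3 to 6 counts of flp-23 over its 3 libraries.

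Other groups of genes moved at L4 with the same contrast, in which 25.3% of all genes were called lower and 23.3% higher. Of 18 oocyte and yolk genes 18 were called higher in xnp-1, with a median of 5.03, and their summed level was 24073 to 38491 CPM in xnp-1 against 218 to 988 CPM in N2. Of 16 larval moulting regulators 14 were called lower, with a median of -2.38, and their sum was 253 to 539 CPM against 2701 to 6114 CPM. Among 12 hypodermis genes 6 were called lower, with a sum of 401 to 792 CPM against 6244 to 6934 CPM, and among 15 germline genes 11 were called higher. Body wall muscle genes had 5 of 12 called lower. No gene of these 5 lists was at 0 in N2 or xnp-1 at L4, and the part of these differences in the flp levels was not tested. Pan-neuronal genes had 4 of 20 called higher and 6 called lower, with a median of -0.26. Their sum was 928 to 1044 CPM in xnp-1 and 609 to 867 CPM in N2, higher in xnp-1 although 12 of the 20 estimates were below 0. The part of the pan-neuronal differences in the flp levels was not tested.

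The libraries labelled gsox-1 held family sums of 490, 517 and 481 CPM. Of 30 flp genes edgeR called 0 in either direction against N2, beside 0.0229% of all genes called, and DESeq2 called 0. An unadjusted edgeR p under 0.05 was found for 0 flp genes and for 4.91% of all genes. The median was -0.15. flp-8 had the lowest estimate, -0.81 ± 0.38, with 12.7, 13.1 and 10.7 CPM, all below the N2 libraries. flp-3, flp-6, flp-9 and flp-12 were the other members whose libraries labelled gsox-1 all lay below N2.

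The double genotype held family sums of 753, 576 and 522 CPM, and against N2 0 of 30 flp genes were called by edgeR, beside 1.04% of all genes in either direction. The median was 0.07, 1 member had an unadjusted p under 0.05 (flp-28, -0.45 ± 0.19, edgeR adjusted p = 0.343), and DESeq2 called 0. flp-18, whose peptides act on NPR-1, NPR-4 and NPR-5, was called higher in a blocked fit of these groups alone (0.47 ± 0.13, edgeR adjusted p = 0.0409), and not otherwise (adjusted p = 0.508). Groups did not overlap for flp-4, higher in the double genotype, nor for flp-28 and flp-34, which were lower.

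Against xnp-1, 18 of 30 flp genes were called higher in the double genotype and 0 lower, beside 22.3% of all genes called higher. The median was 0.67, against 0.09 over all genes, and 19 members had all double-genotype libraries above all xnp-1 libraries. The share of all genes without overlap was not computed. An unadjusted edgeR p under 0.05 was found for 23 of 30 members and for 52.1% of all genes. This comparison shares the xnp-1 libraries with that of xnp-1 against N2, so both are given side by side and were not correlated. In the same comparison 18 of 18 oocyte and yolk genes were called lower, beside 3834 of all 17492 genes, and 13 of 16 moulting regulators and 6 of 12 hypodermis genes were called higher. Their part in the flp values was not tested. The summed oocyte and yolk level was 128 to 325 CPM in the double genotype.

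flp-9 had 36.5, 36 and 29.7 CPM in xnp-1 and 56.5, 57.5 and 51 CPM in the double genotype, a change of 0.69 ± 0.14 (edgeR adjusted p = 0.00214). flp-4 had 5.44, 5.93 and 5.13 CPM in xnp-1 and 9.58, 9.66 and 9.85 CPM in the double genotype (0.82 ± 0.19, edgeR adjusted p = 0.00439). flp-11 had 20.5, 21.1 and 13.9 CPM in xnp-1 and 34.1, 35.7 and 27.5 CPM in the double genotype (0.81 ± 0.19, edgeR adjusted p = 0.0048). None of these groups overlapped, and in flp-9 and flp-4 the spread within the double genotype was narrow.

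flp-17 had 10.8, 10.7 and 9.57 CPM in xnp-1 and 28.4, 16.7 and 14.9 CPM in the double genotype (0.95 ± 0.25, edgeR adjusted p = 0.00806). flp-5 had 9.74, 10.7 and 9.90 CPM against 13.7, 17.2 and 16 CPM (0.63 ± 0.16, edgeR adjusted p = 0.00874). flp-33 had 5.34, 5.81 and 5.17 CPM against 6.60, 12.8 and 10.3 CPM (0.86 ± 0.23, edgeR adjusted p = 0.0107). In flp-17 replicate 1 was the high library of the double genotype, and in flp-5 and flp-33 it was the low one.

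The members with estimates below 0 were flp-10 (-0.50 ± 0.20, edgeR adjusted p = 0.062) and flp-28 (-0.45 ± 0.19, edgeR adjusted p = 0.0783). flp-10 had 12.4, 20.9 and 20.8 CPM in the double genotype and flp-28 19.7, 29.1 and 25.3 CPM, all below the xnp-1 libraries of the same gene. DESeq2 called 19 members higher and 2 lower in this comparison, beside 4043 higher and 4450 lower of 17477 genes. Without xnp-1 replicate 2 or 3 the count of members called by edgeR fell to 10 and 6. Calls over all genes in either direction fell from 7730 to 6489 and 5920. In a blocked fit of these groups alone, flp-7, flp-19 and flp-34 were not called (edgeR adjusted p = 0.0526, 0.0894 and 0.0578).

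Against the libraries labelled gsox-1, 0 of 30 flp genes were called in the double genotype by edgeR, beside 0.652% of all genes in either direction. The median was 0.27, 7 members had an unadjusted edgeR p under 0.05, beside 13.3% of all genes, and DESeq2 called 1. flp-3 came nearest, with 11.2, 11.2 and 13.1 CPM in gsox-1 and 16.4, 21.7 and 19.2 CPM in the double genotype (0.69 ± 0.19, edgeR adjusted p = 0.152). flp-34 was the member with all double-genotype libraries below, at 3.38, 4.39 and 3.18 CPM against 4.86, 4.90 and 7.18 CPM.

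The interaction of both genotypes at L4 asks whether the change from gsox-1 to the double genotype differs from the change from N2 to xnp-1. It was called for 12 of 30 flp genes, all with values above 0, beside 17.2% of all genes called with values above 0. The family median was 0.81, against 0.15 over all genes. These 12 genes were flp-1, flp-5, flp-8, flp-9, flp-11, flp-12, flp-14, flp-15, flp-17, flp-20, flp-24 and flp-27.

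flp-9 had the smallest adjusted p (0.82 ± 0.20, edgeR adjusted p = 0.00914), with 46.2, 44.7 and 43.9 CPM in gsox-1 beside the values given above. flp-12 had 32, 21 and 19.4 CPM in N2, 14.7, 13.7 and 13 CPM in xnp-1, 15.1, 17.1 and 17.6 CPM in gsox-1 and 39.3, 24.4 and 16.9 CPM in the double genotype (1.496 ± 0.40, edgeR adjusted p = 0.0147). flp-8 had 35.2, 15.4 and 14.1 CPM in the double genotype, and its interaction of 1.90 ± 0.54 was the largest of the family (edgeR adjusted p = 0.0186). For both genes replicate 1 was the high library in N2 and in the double genotype.

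The pair of L4 libraries of high mitochondrial share moved several of these values. In N2 replicate 1 and in double-genotype replicate 1 10 members were in both cases over 1.5 times the mean of the other libraries of the group, out of 10 in N2 and 13 in the double genotype: flp-1, flp-8, flp-12, flp-14, flp-18, flp-20, flp-22, flp-25, flp-26 and flp-32. In double-genotype replicate 1 another 6 members were below that mean by more than the same factor (flp-2, flp-10, flp-13, flp-16, flp-21 and flp-33). flp-20, a gene of the touch receptor neurons, had 9.22, 4.93 and 5.59 CPM in N2 and 16.3, 7.38 and 5.35 CPM in the double genotype, with replicate 1 the highest in each.

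**Figure D4:**
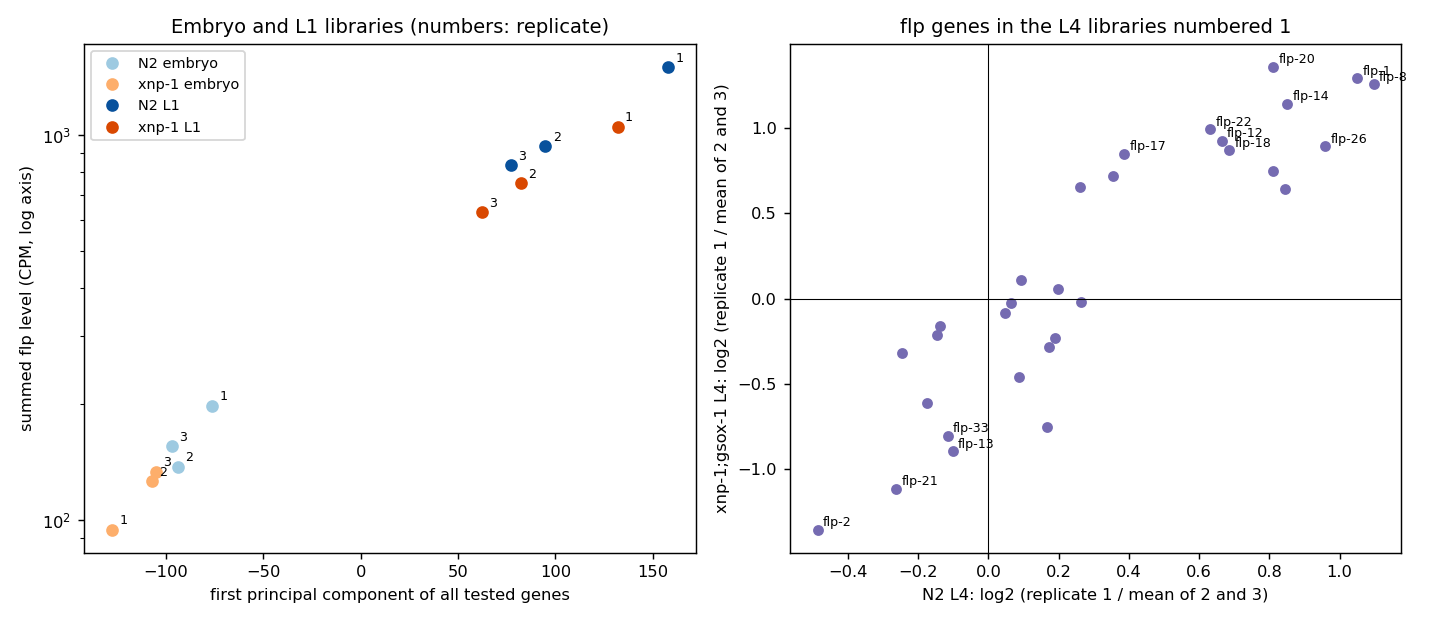
Left, summed flp level of each embryo and L1 library (CPM, log axis) against the first principal component of all tested genes, with replicate numbers; right, for each tested flp gene, log2 of replicate 1 over the mean of replicates 2 and 3 in N2 L4 against the same ratio in the double genotype. The L1 libraries numbered 1 have the highest sums of their groups (1500 and 1050 CPM), and flp-1, flp-8, flp-14 and flp-20 are high in replicate 1 of both L4 groups.

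Without both libraries 14 members were called in the interaction, and the values of flp-1, flp-8, flp-12, flp-14, flp-17, flp-20 and flp-24 were 0.59, 0.89, 0.86, 0.60, 0.65, 0.67 and 0.46. Of these, flp-1 and flp-20 were not called (edgeR adjusted p = 0.062 and 0.12), nor was flp-27 (1.08, edgeR adjusted p = 0.055). Without those libraries the xnp-1 against N2 comparison called 16 members lower and the double genotype against xnp-1 called 20. Calls over all genes in either direction rose as well, from 8492 to 9943 for xnp-1 against N2. They rose from 7730 to 8865 for the double genotype against xnp-1 and from 5826 to 6715 for the interaction. Leaving out single libraries, 1 of that pair among them, moved the interaction count to 3 (gsox-1 replicate 1), 5 (gsox-1 replicate 3), 4 (N2 replicate 1), 6 (xnp-1 replicate 1), 6 (xnp-1 replicate 2) and 3 (xnp-1 replicate 3). In these fits the interaction calls over all genes fell from 5826 to between 4327 and 5545. With any single library left out, the flp count ranged from 3 to 14.

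Enzymes that process FLP precursors were listed as 9 genes. From N2 embryos to L1 larvae 6 were called higher and 1 lower, beside 34.3% of all genes called higher. The amidating enzyme genes pghm-1 (3.04 ± 0.31, edgeR adjusted p = 1.39e-05) and pgal-1 (2.96 ± 0.28, edgeR adjusted p = 9.56e-06), the carboxypeptidase gene egl-21 (2.87 ± 0.30) and the convertase gene egl-3 (2.88 ± 0.32) were close to the family median of the flp genes. At L4, 6 of 9 were called lower in xnp-1 and 0 higher, beside 25.3% and 23.3% of all genes. pghm-1 fell from 40.4 to 47.9 CPM across N2 libraries to 26.8 to 28.7 CPM (-0.66 ± 0.13, edgeR adjusted p = 0.00168), and pgal-1, aex-5 and kpc-1, the last a furin-type convertase, changed by -0.67 ± 0.18, -0.99 ± 0.22 and -0.93 ± 0.14. egl-3 and egl-21, with -0.36 ± 0.28 and -0.40 ± 0.26, did not pass the threshold. In the double genotype against xnp-1, 5 of 9 were called higher and 0 lower, beside 22.3% of all genes called higher. In embryos aex-5 was the only member called (-1.21 ± 0.27, edgeR adjusted p = 0.0497).

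Of 45 tested FLP and related neuropeptide receptor genes, 33 were called higher and 1 lower from N2 embryos to L1 larvae, beside 34.3% of all genes called higher. The median was 1.34, and npr-43 changed most clearly (3.27 ± 0.37, edgeR adjusted p = 2.75e-05). In xnp-1 against N2 at L4, 9 of 45 were called lower and 1 higher, where 25.3% of all genes were called lower and 23.3% higher. Whether receptors differ from all genes was not tested. The summed level of the list was low, at 82.2 to 92.2 CPM in xnp-1 and 106 to 124 CPM in N2. frpr-9 fell by 2.08 ± 0.37 on the log2 scale, npr-41 by 1.91 ± 0.38 and frpr-16 by 1.30 ± 0.35. The gene called higher was egl-6, the receptor of FLP-10 and FLP-17 peptides, at 3.29 to 5.83 CPM in xnp-1 against 0.882 to 1.54 CPM in N2 (1.88 ± 0.37, edgeR adjusted p = 0.00139). Its levels in the double genotype were 0.626 to 1.44 CPM, lower than in xnp-1 (-2.12 ± 0.37, edgeR adjusted p = 0.00077). Embryo and L1 comparisons of xnp-1 with N2 called 0 of 45 receptors.

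Of 16 dense-core vesicle genes 2 were called higher in xnp-1 at L4 (pkc-1, 0.82 ± 0.28, and rab-10), beside 23.3% of all genes. Another 3 were called lower (among them cccp-1, -0.76 ± 0.17, and ric-19, -0.63 ± 0.18), beside 25.3% of all genes. Whether this list differs from all genes was not tested. From N2 embryos to L1 larvae 8 of 16 were called higher and 1 lower, led by cab-1 (2.60 ± 0.25), beside 34.3% of all genes called higher. Of 10 genes for extracellular peptide degradation 6 were called lower and 2 higher in xnp-1 at L4, again beside 25.3% and 23.3% of all genes. The peptidase gene nep-1, a neprilysin, fell by 2.22 ± 0.44 on the log2 scale, and dpf-3, a dipeptidyl peptidase gene, rose by 0.92 ± 0.20.

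Compared with other neuropeptide families as counts, 61 of 67 tested nlp genes (neuropeptide-like proteins) and 14 of 23 tested ins genes (insulin-like peptides) were called higher from N2 embryos to L1 larvae, against 30 of 30 flp genes. In xnp-1 against N2 at L4, 20 of 67 nlp genes were called lower and 2 higher, and 10 of 30 ins genes were called lower and 2 higher, beside 25.3% and 23.3% of all genes. The medians were -0.57 for nlp, -0.60 for ins and -0.62 for flp genes. Whether these families differ from the flp genes was not tested. Neuronal identity transcription factor genes did not follow the rise to L1, with 2 of 40 called higher and 18 lower. Over all 17687 genes 34.3% were called higher and 4460 genes were called lower. Pan-neuronal genes had 8 of 20 called higher and 4 lower over the same step, with a median of 0.27 against 2.79 for the flp genes.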

How the data were processed

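Poly(A) RNA of whole animals was sequenced for 24 libraries, 12 in each table. Per the file headers, the authors counted the deposited raw counts per gene with featureCounts 2.0.1 (embryo and L1, fragments, reverse-stranded, mapping quality of at least 10, overlap of at least 60 bases) and 2.0.6 (L4, paired mode without the read-pair option, so both mates may count), on WS280 gene models and WBcel235. The submitters' processing notes name FastQC, Trim Galore, STAR and SAMtools, with versions not given in the sources used here. The sources do not say that replicates came from separate cultures, so p-values measure the spread between these samples.

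Each table was fitted whole with edgeR 4.0.16 (limma 3.58.1, R 4.3.3): filterByExpr by group, TMM scaling, robust quasi-likelihood F tests, two-sided, Benjamini-Hochberg over 17687 and 17492 genes, called under 0.05. Alternatives used DESeq2 1.42.0, other scalings, no filter, the replicate number as a block and left-out libraries. Tests were checked on simulated data. The share of all genes whose groups do not overlap was not computed for any comparison. Same-numbered libraries deviated together, with every correlation over 0.1, in L1 N2 and xnp-1 and among L4 N2, xnp-1 and the double genotype. Figures used Python 3.11.15, pandas 2.3.3 and matplotlib 3.10.9.

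Members and gene lists were chosen with earlier results of these data known. Values in every library are given for the 6 called members of smallest p in a comparison, the 3 highest per length in N2 at each stage, members near 0 and members that move against the rest; up to 4 genes of smallest adjusted p are named per pathway list. Symbols came from a gene name reference, which matched 44114 of 46926 identifiers, and the symbol of gsox-1 was taken from the RefSeq gene table. The 12 small RNA samples were not analysed here.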

Additional observations from a re-analysis of the deposited data

Results flagged for a closer look

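The effect of xnp-1 at L4 differed between the gsox-1 background and N2 for 12 flp genes, by edgeR's interaction term, with every value above 0. Over all genes 17.2% were called with values above 0. On the log2 scale the differences were 1.90 for flp-8, 1.60 for flp-20, 1.59 for flp-1, 1.496 for flp-12, 1.43 for flp-14, 1.16 for flp-27, 1.13 for flp-17, 0.96 for flp-15, 0.93 for flp-11, 0.82 for flp-9, 0.80 for flp-24 and 0.69 for flp-5. Without the pair of L4 libraries of high mitochondrial share the 5 largest were smaller, at 0.89 for flp-8, 0.67 for flp-20, 0.59 for flp-1, 0.86 for flp-12 and 0.60 for flp-14. There flp-1, flp-20 and flp-27 were not called. Of the 12 genes, flp-9 and flp-12 were called under all 18 alternatives run. The call held in 5 of the 18 for flp-5, in 8 for flp-24, in 9 each for flp-1, flp-15 and flp-20, and in 12 to 17 for the other 5 genes. RNA of gsox-1 was not lower in the libraries labelled gsox-1, so the labels alone define that background.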

How the results depend on the processing

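All values here are counts of flp genes called, by edgeR unless DESeq2 is named. In embryos, xnp-1 against N2 went from 0 to 1 with DESeq2, with the replicate block, with only the groups compared and with both together, and ranged from 0 to 1 when single libraries were left out. In L1 larvae it went from 0 to 16 with the replicate block and only the groups compared. At L4, xnp-1 against N2 went from 15 to 9 with library totals and ranged from 5 to 20 without single libraries. The double genotype against N2 went from 0 to 1 with the replicate block and only the groups compared. Against gsox-1 it went from 0 to 1 with DESeq2 and without the pair of high mitochondrial share, which was chosen after seeing the data. Against xnp-1 the count of 18 ranged from 6 to 19, and the interaction count of 12 from 3 to 14, without single libraries. Over all genes, calls of xnp-1 against N2 went from 76 higher and 121 lower to 181 and 412 with DESeq2 in embryos, and from 64 and 21 to 609 and 1392 with the block and only the groups compared in L1 larvae; the double genotype against N2 went from 75 and 107 to 569 and 1068. No value changed sign after being called. A single gene's call was lost in 203 cases, of which 79 were in xnp-1 against N2 at L4. The cause was not tested. The lowest count of a tested member was 6, for flp-33 in 1 xnp-1 embryo library.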
